A study of Mus musculus with 24 samples.

Results

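The comparison set liver neutrophils of mice given a blocking antibody against the IL-21 receptor (anti-IL21R) against those of mice given an isotype control antibody. The libraries of the antibody table that are labelled with either antibody were taken, which gave 3 anti-IL21R and 3 isotype libraries, 6 of the 15 libraries of that table and of the 24 libraries of the series. The animals of both groups were NOD.c3c4 mice, which develop an autoimmune disease of the bile ducts. Nanoparticles carrying PDC166 had been injected intravenously 10 times in both groups, so the isotype libraries also came from treated animals. The other 9 libraries of the table came from mice with the same nanoparticle treatment and an antibody labelled anti-GCF (3 libraries), anti-TGFb (2), anti-IL35 (2) or anti-IL10 (2). The labels say neither how old the mice were nor whether replicates came from separate animals, so p-values measure only the spread between these libraries, which may be technical.

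IL-21 is a cytokine made mainly by follicular helper T cells and other CD4+ T cells. Its receptor pairs the IL21R chain with the common gamma chain encoded by Il2rg and signals through JAK1 and JAK3, mainly to STAT3. Type I interferons signal through other JAK pairs to a complex that holds STAT2 and IRF9 and switches on antiviral genes such as Ifit3 and Isg15. Interferon-gamma acts in part through IRF1 on guanylate-binding proteins, on the checkpoint ligand gene Cd274 and on MHC class I genes, which the transactivator NLRC5 also drives. Mature neutrophils no longer divide and carry granule proteins that they made earlier, as precursors in the bone marrow.

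The anti-IL21R libraries held 27.4, 31.4 and 33.7 M counts and the isotype libraries 27.0, 47.5 and 30.2 M, within the 23.6 to 47.5 M of the whole table. S100a9, a calprotectin gene and one of the main neutrophil transcripts, took 5.13 to 6.27% of the counts in the anti-IL21R libraries and 5.76 to 6.43% in the isotype libraries. Ly6g, a surface marker of mouse neutrophils, was at 1332, 1016 and 897 CPM in the anti-IL21R libraries, against 806, 1027 and 851 CPM in the isotype libraries, where CPM is the count scaled to library size after TMM normalization. The libraries thus carried the markers of their label, and the counts and levels of other cell types' markers are given with the results. Some libraries stood apart from the others of their group. Among 6701 genes averaging at least 10 CPM, 31 were more than 2 times above both other anti-IL21R libraries in replicate 2, and 21 of these belong to the interferon lists. The same count was 8 in replicate 1 and 7 in replicate 3, with 0 interferon genes among either. Isotype replicate 1 had 74 genes more than 2 times above and 116 more than 2 times below both other isotype libraries, more than any other of the 6 libraries on each side. The interferon lists hold 1 of those above and 9 of those below, among the latter Isg15, Ifit3 and Gbp2. Isotype replicate 3 was more than 2 times above both other isotype libraries for 7 of 9 mitochondrially encoded genes, among them mt-Cytb, a respiratory chain subunit gene at 1446, 1403 and 1147 CPM in the anti-IL21R libraries, against 1649, 1234 and 3756 CPM in the isotype libraries. Lars2, which encodes a mitochondrial leucyl-tRNA synthetase, was more than 2 times above both other anti-IL21R libraries in replicate 1, at 847, 289 and 338 CPM in the anti-IL21R libraries, against 253, 471 and 309 CPM in the isotype libraries. Gm15564 and Mir6236 had the same order of libraries, at 249, 87.0 and 97.1 CPM and at 686, 230 and 278 CPM in the anti-IL21R libraries. The part of these differences in the results below was not tested.

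With anti-IL21R, 8 of 30 tested H2 genes, the class I regulator Nlrc5, Cd274 and the cytotoxic granule gene Gzmb rose, whereas 11 of 31 cell cycle genes and 7 of 11 erythroid genes fell. Of 16812 genes tested, 375 passed an adjusted p of 0.05 (edgeR quasi-likelihood test, Benjamini-Hochberg), which is 2.23%. Of these, 181 rose (1.08% of the genes tested) and 194 fell (1.15%). The genes that rose had a median level of 46.2 CPM over the 6 libraries, against 4.54 CPM for those that fell and 4.80 CPM for all genes tested. A change of at least 2-fold was estimated for 72 of the genes that rose and 124 of those that fell, and the median log2 fold change of all genes was −0.02. The single libraries of the groups did not overlap for 180 of the genes that rose and 193 of those that fell. Among all genes, 12.8% were higher and 12.7% lower in every anti-IL21R library than in any isotype library. The exceptions among the called genes were Tinf2, a telomere protein gene, and Ece1, which encodes an endothelin-converting enzyme.

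The number of calls depended on single libraries, although 3897 genes had an unadjusted p under 0.05. The fit called 188, 2 and 2 genes without anti-IL21R replicate 1, 2 and 3, and 2123, 3 and 7 genes without isotype replicate 1, 2 and 3. It called 42 genes when the anti-GCF libraries, which add to the shared estimate of spread, were left out, a choice made after seeing the data. Gzmb and Efr3b were the 2 genes that kept an adjusted p under 0.05 whichever of the 6 libraries was left out. With any of the 6 left out, every one of the 375 genes that could still be tested kept its sign, which the lack of overlap between the groups fixes for nearly all of them. A fit of the 2 groups alone called 22 genes, limma-voom 316 and DESeq2 1543.

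**Figure D1:**
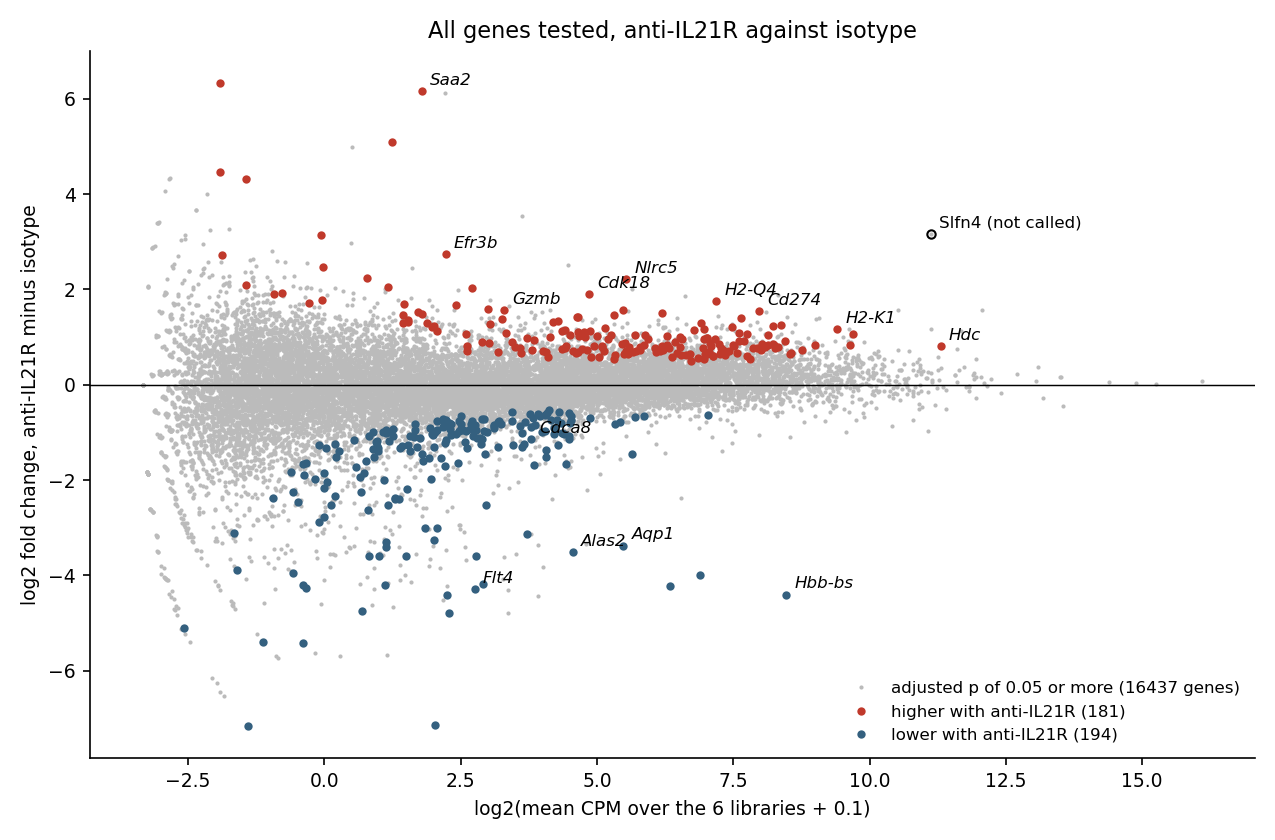
Log2 fold change of anti-IL21R over isotype (vertical axis) against the average level of each gene in log2 CPM (horizontal axis) for the 16812 genes tested, with the 181 genes that rose and the 194 that fell in colour. The genes that rose lie further to the right (median 46.2 CPM) than those that fell (median 4.54 CPM).

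**Figure D2:**
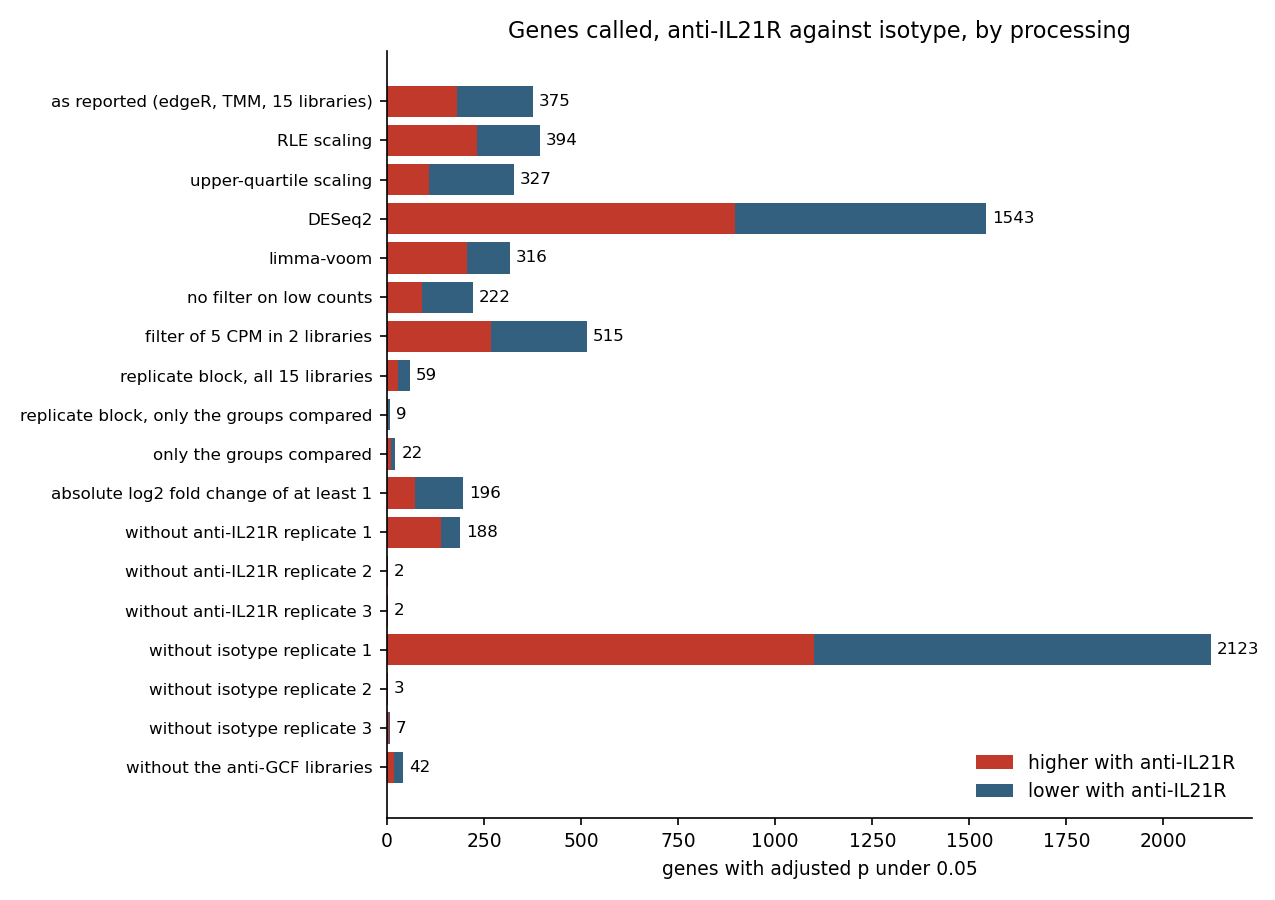
Number of genes past the threshold in anti-IL21R against isotype (horizontal axis) under each processing alternative (rows). Leaving out single libraries spans 2 to 2123 calls around the 375 of the fit reported here.

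Several MHC class I genes were among the genes that rose. Gene positions are those of mm10 in GENCODE M21. H2-K1, a classical class I heavy chain gene at chr17:33996017-34000347, was at 862, 1147 and 793 CPM in the anti-IL21R libraries, against 346, 471 and 430.4 CPM in the isotype libraries. Every anti-IL21R library was above every isotype library by a wide margin (log2 fold change 1.17 ± 0.21 (SE, n = 3 libraries a group), adjusted p = 0.0267 by the edgeR quasi-likelihood test). H2-Q4 was at 147, 333 and 192 CPM in the anti-IL21R libraries, against 76.1, 60.6 and 62.4 CPM in the isotype libraries, and the anti-IL21R libraries lay apart from each other, with replicate 2 highest (log2 fold change 1.76 ± 0.28, adjusted p = 0.0195). The neighbouring class Ib genes H2-Q6 and H2-Q7 followed. H2-Q6 was at 231, 374 and 265 CPM in the anti-IL21R libraries, against 104, 109 and 113 CPM in the isotype libraries (log2 fold change 1.41 ± 0.23, adjusted p = 0.0195). H2-Q7 was at 55.4, 78.3 and 65.9 CPM in the anti-IL21R libraries, against 20.6, 23.1 and 23.8 CPM in the isotype libraries (log2 fold change 1.56 ± 0.24, adjusted p = 0.017). The isotype libraries were tight for both genes and the groups did not overlap. In all, 8 of the 30 tested genes with an H2 symbol rose and 0 fell, the others being H2-Q1, H2-Q10, H2-M3 and H2-T22, with log2 fold changes of 0.87 to 1.07. In 14 of the 30 the anti-IL21R libraries were all above the isotype libraries, against 12.8% of all genes. The H2-Q genes are near-identical copies and the mice carry NOD alleles of the region, so the split of reads between copies is uncertain.

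Fewer genes of the rest of the class I machinery passed. Nlrc5, the transactivator of class I genes at chr8:94434356-94527272, was at 31.3, 139.7 and 57.3 CPM in the anti-IL21R libraries, against 19.0, 13 and 16.9 CPM in the isotype libraries. Replicate 2 was more than 2 times the other anti-IL21R libraries, and replicate 1 was nearest to isotype (log2 fold change 2.22 ± 0.45 (SE, n = 3 libraries a group), adjusted p = 0.0403 by the edgeR quasi-likelihood test). Tap1, a subunit of the transporter that loads peptides onto class I molecules, was at 135, 220.3 and 139 CPM in the anti-IL21R libraries, against 76.7, 95.6 and 81.6 CPM in the isotype libraries (log2 fold change 0.96 ± 0.22, adjusted p = 0.0473). H2-D1, the other classical heavy chain, was at 5127, 5010 and 4030 CPM in the anti-IL21R libraries, against 2772, 3779 and 3185 CPM in the isotype libraries, without overlap, but it did not pass the test (log2 fold change 0.54 ± 0.20, adjusted p = 0.127). B2m, the light chain of every class I molecule, had overlapping groups (log2 fold change 0.34 ± 0.24, adjusted p = 0.425). Of the 16 tested genes of class I presentation, 3 rose and 0 fell, with a median log2 fold change of 0.35 and 13 above 0. The immunoproteasome subunits Psmb8, Psmb9 and Psmb10 and the loading factors Tap2 and Tapbp had log2 fold changes of 0.26 to 0.40 and did not pass. Class II genes, markers of antigen-presenting cells, had 0 of 12 members past the edgeR threshold, 5 with an unadjusted p under 0.05, all lower, and a median of −0.44. DESeq2 called 4 of them lower and limma-voom 1. Cd74, the class II invariant chain, was at 779, 759 and 663 CPM in the anti-IL21R libraries, against 1175, 1088 and 1247 CPM in the isotype libraries, with every anti-IL21R library lower (log2 fold change −0.67 ± 0.18, adjusted p = 0.0649). Without anti-IL21R replicate 2, H2-K1 had an adjusted p of 0.128, H2-Q4 and H2-Q7 of 0.0849 and 0.0892, H2-Q6 of 0.0982 and Nlrc5 of 0.117, and the class I list had 0 members past the threshold, as it did without anti-IL21R replicate 3 or without isotype replicate 2 or 3.

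The promoters of these genes are shown because they carry the letters of an interferon response element, and those of 3 interferon-induced genes stand beside them. Each is the run of 250 bases before the annotated start in RefSeq (GRCm38.p6), written 5′ to 3′ along the gene. Capitals mark matches, on either strand, to GAAANNGAAA (reverse complement TTTCNNTTTC) or GAANNGAAA (reverse complement TTTCNNTTC), 2 patterns that differ by 1 base and may overlap.
H2-K1, chr17:34000348-34000597, minus strand: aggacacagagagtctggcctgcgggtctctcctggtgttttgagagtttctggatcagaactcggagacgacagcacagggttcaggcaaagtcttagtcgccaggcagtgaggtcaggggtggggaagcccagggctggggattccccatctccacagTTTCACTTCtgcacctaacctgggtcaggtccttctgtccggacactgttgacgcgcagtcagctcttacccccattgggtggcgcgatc
H2-Q4, chr17:35379367-35379616, plus strand: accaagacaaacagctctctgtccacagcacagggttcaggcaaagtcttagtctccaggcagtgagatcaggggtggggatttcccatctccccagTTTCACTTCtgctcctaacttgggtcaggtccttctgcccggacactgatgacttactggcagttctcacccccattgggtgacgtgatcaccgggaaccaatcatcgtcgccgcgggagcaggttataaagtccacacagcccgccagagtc
H2-Q6, chr17:35424600-35424849, plus strand: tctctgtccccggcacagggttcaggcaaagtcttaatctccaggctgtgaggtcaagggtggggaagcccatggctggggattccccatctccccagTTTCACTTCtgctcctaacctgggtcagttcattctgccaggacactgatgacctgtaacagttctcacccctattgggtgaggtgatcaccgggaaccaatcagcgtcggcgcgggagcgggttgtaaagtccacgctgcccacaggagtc
H2-Q7, chr17:35438905-35439154, plus strand: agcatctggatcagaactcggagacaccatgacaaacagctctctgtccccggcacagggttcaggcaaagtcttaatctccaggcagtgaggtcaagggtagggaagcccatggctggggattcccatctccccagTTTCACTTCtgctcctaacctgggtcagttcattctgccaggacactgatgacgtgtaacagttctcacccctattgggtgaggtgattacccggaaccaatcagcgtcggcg
Ifit3, chr19:34583279-34583528, plus strand: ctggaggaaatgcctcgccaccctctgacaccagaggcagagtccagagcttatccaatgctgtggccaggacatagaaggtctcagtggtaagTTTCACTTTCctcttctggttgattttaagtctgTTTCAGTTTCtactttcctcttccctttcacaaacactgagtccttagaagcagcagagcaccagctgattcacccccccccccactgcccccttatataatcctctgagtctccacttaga
Isg15, chr4:156200819-156201068, minus strand: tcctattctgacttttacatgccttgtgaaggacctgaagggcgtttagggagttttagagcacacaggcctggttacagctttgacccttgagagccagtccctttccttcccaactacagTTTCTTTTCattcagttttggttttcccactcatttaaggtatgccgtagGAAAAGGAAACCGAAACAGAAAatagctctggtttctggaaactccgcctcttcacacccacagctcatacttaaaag
Gbp2, chr3:142620413-142620662, plus strand: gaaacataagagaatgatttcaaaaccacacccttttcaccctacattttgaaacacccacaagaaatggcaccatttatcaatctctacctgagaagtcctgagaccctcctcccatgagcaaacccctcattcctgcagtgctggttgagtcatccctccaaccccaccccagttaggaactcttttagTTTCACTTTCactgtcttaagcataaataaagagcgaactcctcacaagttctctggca

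The 4 class I promoters printed here hold the same 9 letters, and these genes are paralogs that share much of the sequence around them. The run begins 90 bases before the start in H2-K1, 153 in H2-Q4, 152 in H2-Q6 and 113 in H2-Q7. The shorter pattern occurs in 6.34% of 27025 promoters of this length and in 5.11% of the 11616 genes tested that have one. It occurs in 6 of the 7 H2 genes that rose and have a promoter in the table, and the longer pattern in 1 of them. Its share among H2 genes that did not rise was not counted, so these values do not link the pattern to rising. In the class I presentation list as a whole the shorter pattern occurs in 2 of 13 promoters (15.4%) and the longer in 1 of 13 (7.69%). Over all genes called, it occurs in 14 of 137 promoters of genes that rose and 6 of 143 of genes that fell. The longer pattern occurs in 3.04% of all promoters, in 16 of 35 type I interferon-stimulated genes (45.7%) and in 11 of 16 interferon-gamma-induced genes (68.8%). Among genes called it occurs in 6 of 137 promoters of genes that rose and 5 of 143 of genes that fell. These are matches of letters only and no binding was measured.

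The interferon-gamma-induced genes were mostly higher in the anti-IL21R libraries. Of 23 tested, 3 rose and 0 fell, and the median log2 fold change was 1.07. Of the 23, 14 were higher in every anti-IL21R library than in any isotype library, against 12.8% of all genes. Cd274, which encodes the checkpoint ligand PD-L1 (at chr19:29367455-29388095), was at 255, 534 and 329 CPM in the anti-IL21R libraries, against 144, 122 and 119 CPM in the isotype libraries. The isotype libraries lay close together and the lowest anti-IL21R library was well above them (log2 fold change 1.54 ± 0.35 (SE, n = 3 libraries a group), adjusted p = 0.0447 by the edgeR quasi-likelihood test). Iigp1, an immunity-related GTPase that acts on pathogen vacuoles, was at 5.42, 14.0 and 11.4 CPM in the anti-IL21R libraries, against 1.61, 3.19 and 2.72 CPM in the isotype libraries (log2 fold change 2.03 ± 0.36, adjusted p = 0.0267). Gbp6, a guanylate-binding protein gene of low level, was at 1.52, 4.57 and 1.92 CPM in the anti-IL21R libraries, against 0.551, 0.632 and 0.485 CPM in the isotype libraries (log2 fold change 2.25 ± 0.41, adjusted p = 0.0267). Both were highest in replicate 2 and neither overlapped. Irf1, the transcription factor that relays interferon-gamma signals, was at 596, 735 and 657 CPM in the anti-IL21R libraries, against 317, 428 and 407 CPM in the isotype libraries. All anti-IL21R libraries were higher, but it did not pass the test (log2 fold change 0.79 ± 0.21, adjusted p = 0.063). Gbp2 was at 113, 252 and 93.3 CPM in the anti-IL21R libraries, against 24.0, 52.8 and 49.3 CPM in the isotype libraries (log2 fold change 1.86 ± 0.62, adjusted p = 0.11), with replicate 3 of the anti-IL21R group nearest to isotype. Irf8 and Ciita had log2 fold changes of −0.47 and −0.37. Of genes outside these lists that interferon also induces, Parp10, Rnf213 and Trafd1, chosen after their values were seen, rose by 1.30, 0.97 and 1.08 on the log2 scale. Uba7 and Helz2, chosen in the same way, did not pass. Uba7 was at 68.8, 251 and 100 CPM in the anti-IL21R libraries, against 67.5, 55.3 and 51.5 CPM in the isotype libraries. Helz2 was at 152, 383 and 217 CPM, against 174, 65.0 and 74.0 CPM, and overlapped. Without anti-IL21R replicate 2 the median was 0.67, with 0 members past the threshold, and Cd274 had an adjusted p of 0.176. Without anti-IL21R replicate 3 the fit called 2 genes in all, Gzmb and Efr3b, so this list again had 0 members past the threshold. It had 4 higher without anti-IL21R replicate 1.

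Type I interferon-stimulated genes differed more between anti-IL21R libraries than between the groups. By the edgeR quasi-likelihood test 0 of 46 passed in either direction, although 14 had an unadjusted p under 0.05, all higher. A log2 fold change above 0 was found for 40 of them, and the median was 0.69. DESeq2 called 6 of them higher and limma-voom 0. Of the 46, 9 were higher in every anti-IL21R library than in any isotype library, against 12.8% of all genes. In 45 of the 46, replicate 2 was the highest anti-IL21R library, which was so for 40.8% of all genes. Relative to the isotype mean of each gene, the median log2 level of the list was 0.15, 1.35 and 0.15 in anti-IL21R replicates 1, 2 and 3 and −0.48, 0.32 and 0.17 in isotype replicates 1, 2 and 3. Replicates 1 and 3 thus lay within the range of the isotype libraries and replicate 2 above it. In replicate 2, 40 of the 46 genes were above every isotype library, against 18 in replicate 1 and 18 in replicate 3. Over all genes these shares were 34.5%, 25.1% and 29.7%. Without replicate 2 the median fold change was 0.16.

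Ifit3, which encodes an RNA-sensing antiviral protein, was at 13.2, 86.3 and 12.2 CPM in the anti-IL21R libraries, against 3.30, 8.98 and 7.30 CPM in the isotype libraries. Replicate 2 stood far above the other 5 libraries, and the lowest values of the anti-IL21R group were just above the highest isotype value (log2 fold change 2.5 ± 0.86 (SE, n = 3 libraries a group), adjusted p = 0.118 by the edgeR quasi-likelihood test). Isg15, a ubiquitin-like modifier, was at 51.2, 117 and 35.9 CPM in the anti-IL21R libraries, against 18.5, 41.0 and 38.0 CPM in the isotype libraries. Replicates 1 and 2 exceeded every isotype library, and replicate 3 lay among them (log2 fold change 1.06 ± 0.56, adjusted p = 0.279). Oasl1, a translational regulator of Irf7, was at 34.5, 145 and 31.8 CPM in the anti-IL21R libraries, against 16.5, 28.4 and 27.3 CPM in the isotype libraries (log2 fold change 1.55 ± 0.69, adjusted p = 0.204). Stat2 was at 17.5, 106 and 44.8 CPM in the anti-IL21R libraries, against 34.9, 15.8 and 18.9 CPM in the isotype libraries, so anti-IL21R replicate 1 was below isotype replicate 1 (log2 fold change 1.28 ± 0.55, adjusted p = 0.19). Irf9, Samd9l and Zbp1 came nearest to the threshold in this list, with log2 fold changes of 0.93, 0.83 and 2.01 and adjusted p of 0.0642, 0.0678 and 0.0693. Without isotype replicate 1 the list had 3 members past the threshold, and without anti-IL21R replicate 1 it had 1.

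Slfn4, a member of the Schlafen family that interferon induces in myeloid cells, at chr11:83175186-83190216, had the widest range on the log2 scale within the anti-IL21R group among genes averaging at least 10 CPM, immunoglobulin genes left aside. It was at 521, 9576 and 1988 CPM in the anti-IL21R libraries, against 899, 179 and 267 CPM in the isotype libraries. The groups overlapped, since isotype replicate 1 was above anti-IL21R replicate 1 (log2 fold change 3.17 ± 0.91 (SE, n = 3 libraries a group), adjusted p = 0.0784 by the edgeR quasi-likelihood test). In anti-IL21R replicate 2 Slfn4 alone made up most of the summed level of the list, which was 3082, 14175 and 4096 CPM in the anti-IL21R libraries, against 2385, 2428 and 2226 CPM in the isotype libraries. Without Slfn4 the sum was 2561, 4599 and 2107 CPM in the anti-IL21R libraries, against 1486, 2249 and 1958 CPM in the isotype libraries, and anti-IL21R replicate 3 then lay below the highest isotype library. Without anti-IL21R replicate 2 its log2 fold change was 1.49 with an adjusted p of 0.321, and without isotype replicate 1 it was 4.17 with an adjusted p of 0.0271.

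The nuclear long noncoding RNAs Neat1 and Malat1, chosen after their values were seen, followed a like order over the 6 libraries. Neat1 was at 127, 523 and 300.4 CPM in the anti-IL21R libraries, against 178, 81.0 and 139 CPM in the isotype libraries (log2 fold change 1.26 ± 0.45, adjusted p = 0.128). Malat1 was at 418, 1084 and 745 CPM in the anti-IL21R libraries, against 453, 153 and 260.4 CPM in the isotype libraries (log2 fold change 1.37 ± 0.42, adjusted p = 0.0865). For both, isotype replicate 1 was above anti-IL21R replicate 1 and replicate 2 of the anti-IL21R group was highest. Of 44 genes more than 2 times below both others in anti-IL21R replicate 1, 13 (29.5%) were among the 74 more than 2 times above both others in isotype replicate 1 (17.6% of those), Slfn4 among them. Hsph1, a heat shock cochaperone, was at 27.4, 70.6 and 46.6 CPM in the anti-IL21R libraries, against 149, 10.6 and 19.6 CPM in the isotype libraries, with isotype replicate 1 above and the other isotype libraries below every anti-IL21R library.

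**Figure D3:**
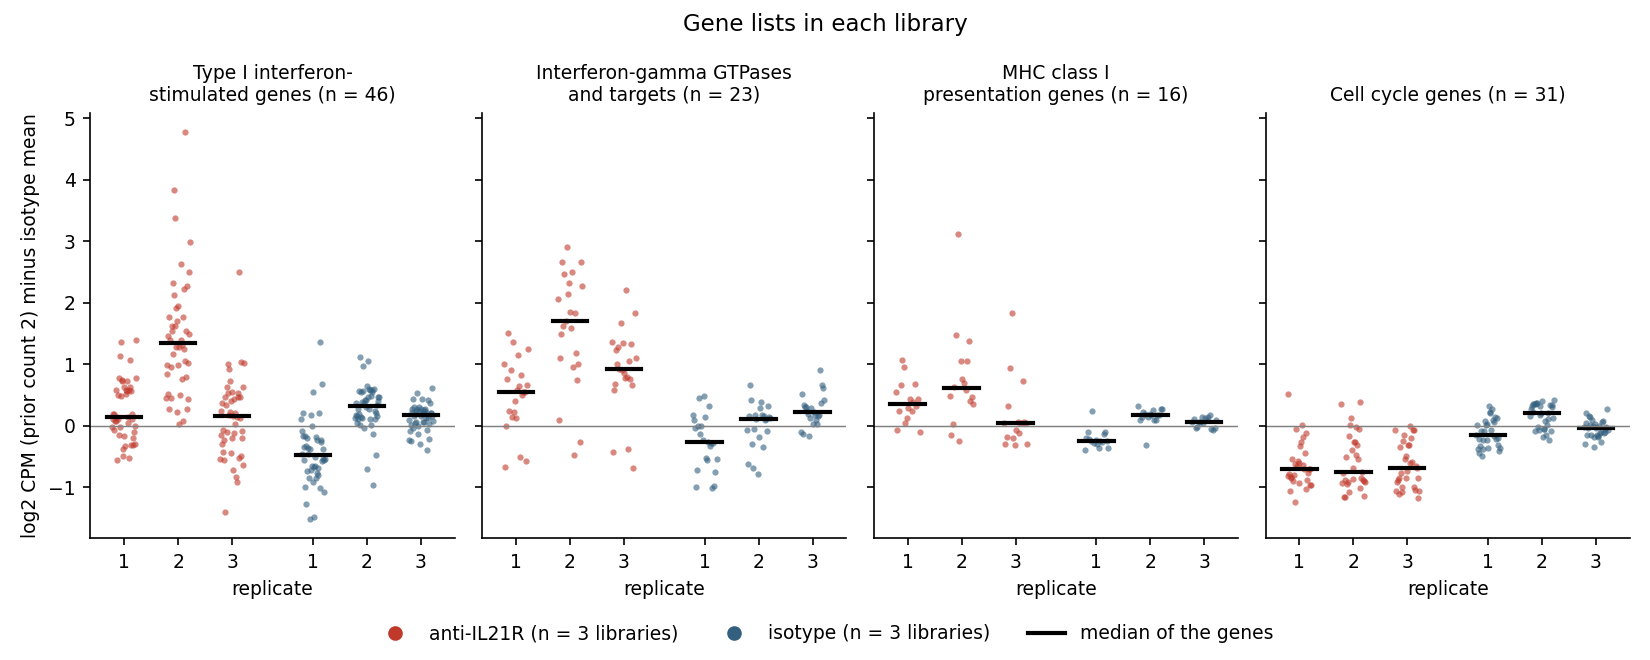
Log2 CPM (prior count 2) of each gene minus its mean over the isotype libraries, per library, for 4 gene lists, with anti-IL21R libraries left of isotype libraries, a point per gene and a black line at the median. The type I interferon list lies at a median of 1.35 in anti-IL21R replicate 2 and at 0.15 in replicates 1 and 3, whereas cell cycle genes lie at −0.71, −0.76 and −0.69 in the anti-IL21R libraries.

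Gzmb and Efr3b separated the groups with little spread, and some other genes that rose are given after them. Gzmb, which encodes the serine protease granzyme B of cytotoxic lymphocytes (at chr14:56258838-56262260), was at 16.3, 13.6 and 13.7 CPM in the anti-IL21R libraries, against 4.60, 5.06 and 4.99 CPM in the isotype libraries. Both groups were tight and lay far apart (log2 fold change 1.57 ± 0.16 (SE, n = 3 libraries a group), adjusted p = 0.00205 by the edgeR quasi-likelihood test), and with each of the 6 libraries left out in turn its adjusted p was 0.00151 to 0.0151. Efr3b, a plasma membrane scaffold for a lipid kinase (at chr12:3962554-4038915), chosen after its values were seen, was at 7.04, 9.14 and 7.60 CPM in the anti-IL21R libraries, against 1.22, 0.733 and 1.64 CPM in the isotype libraries (log2 fold change 2.74 ± 0.29, adjusted p = 0.00214). Its leave-one-out adjusted p was 0.00200 to 0.0192. Cdk18, a cyclin-dependent kinase family member, was at 41.6, 52.0 and 43.4 CPM in the anti-IL21R libraries, against 16.7, 8.78 and 11.3 CPM in the isotype libraries (log2 fold change 1.90 ± 0.33, adjusted p = 0.0267). Tnfrsf26, a member of the TNF receptor family, was at 104, 115 and 106 CPM in the anti-IL21R libraries, against 51.9, 30.3 and 32.4 CPM in the isotype libraries (log2 fold change 1.50 ± 0.22, adjusted p = 0.017). For both, isotype replicate 1 was the highest of its group and still below every anti-IL21R library. Upp1, which encodes a uridine phosphorylase, rose by 1.46 and Perm1 by 1.59 on the log2 scale, and Sec24d, a coat protein of secretory vesicles chosen after its values were seen, by 1.34. The acute-phase genes Saa1 and Saa2, also chosen after seeing their values, had 332 and 511 counts over the anti-IL21R libraries, against 11 and 8 over the isotype libraries, and rose by 5.10 and 6.17 on the log2 scale. Saa3, of the same family, did not follow them and its groups overlapped. It was at 24.8, 13.5 and 3.03 CPM in the anti-IL21R libraries, against 19.5, 48.3 and 48.9 CPM in the isotype libraries. Cdk18, when anti-IL21R replicate 2 was left out, had an adjusted p of 0.117, Tnfrsf26 of 0.0849 and Saa2 of 0.0849. In the same fit it was 0.117 for Saa1, 0.176 for Perm1, 0.142 for Upp1 and 0.0571 for Sec24d. With single libraries left out, the log2 fold change lay between 4.49 and 5.71 for Saa1 and between 1.30 and 1.97 for Perm1.

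Gzmb belongs to the list of T and NK cell markers, of which it was the single member of 18 past the threshold. The list had a median log2 fold change of 0.27, with 13 of 18 members above 0 and values from −1.48 to 1.57. Its summed level was 422, 312 and 325 CPM in the anti-IL21R libraries, against 308, 351 and 457 CPM in the isotype libraries. Nkg7, a cytotoxic granule membrane gene, was at 15.6, 13.8 and 13.6 CPM in the anti-IL21R libraries, against 12.5, 11.7 and 12.8 CPM in the isotype libraries (log2 fold change 0.22 ± 0.17, adjusted p = 0.46). Prf1, which encodes perforin, was at 3.00, 3.75 and 2.51 CPM in the anti-IL21R libraries, against 2.09, 1.52 and 2.46 CPM in the isotype libraries (log2 fold change 0.62 ± 0.29, adjusted p = 0.218). Cd3e, a subunit of the T cell receptor complex, was at 11.6, 12.2 and 9.41 CPM in the anti-IL21R libraries, against 8.22, 3.92 and 9.76 CPM in the isotype libraries (log2 fold change 0.61 ± 0.28, adjusted p = 0.213), and Ncr1, a receptor of NK cells, was at 4.85, 4.61 and 4.01 CPM in the anti-IL21R libraries, against 3.54, 2.33 and 3.06 CPM in the isotype libraries (log2 fold change 0.60 ± 0.29, adjusted p = 0.235). Nkg7, Prf1 and Ncr1 did not overlap but had smaller fold changes than Gzmb, and Cd3e overlapped. The part of lymphocyte RNA in the Gzmb difference was not tested. In bulk samples, fewer cells of a type and less RNA per cell cannot be told apart.

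**Figure D4:**
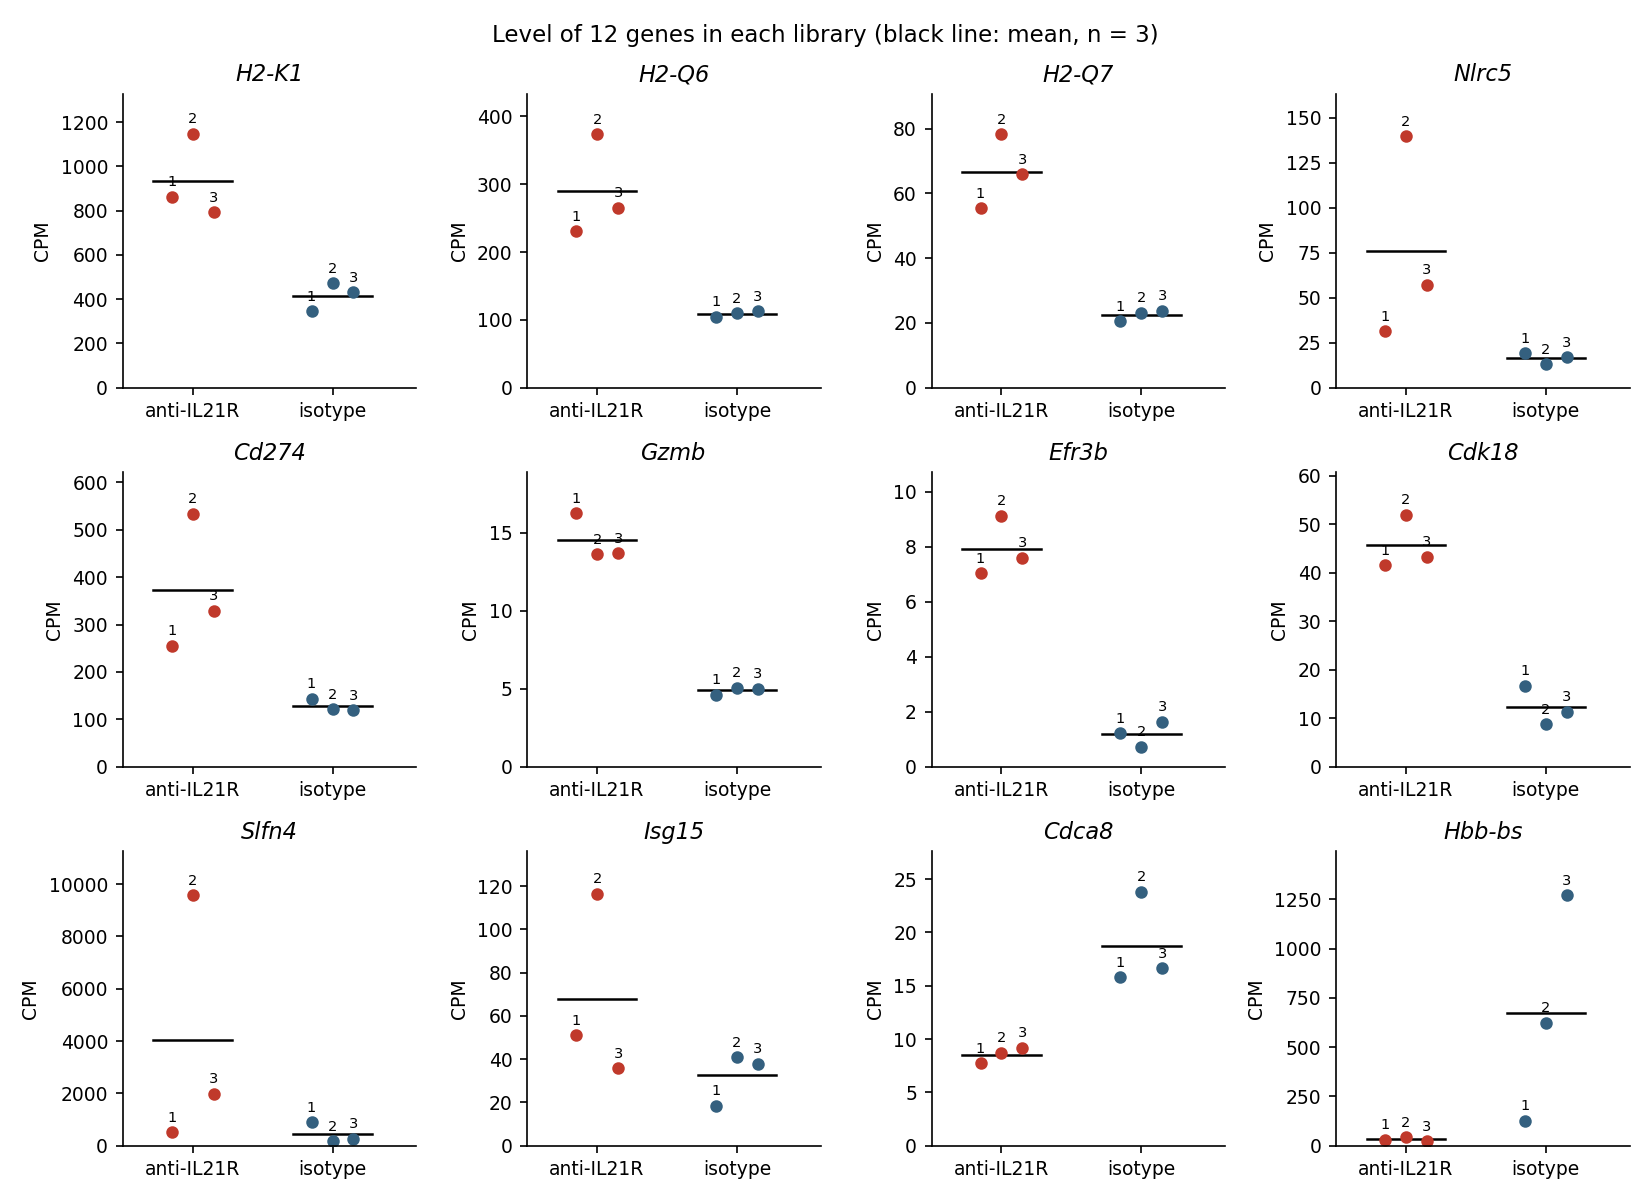
Level in CPM (vertical axes, from 0) of 12 genes in each anti-IL21R library (left) and isotype library (right), with replicate numbers beside the points and a line at the mean. Gzmb and Efr3b are tight within each group, Slfn4 and Nlrc5 are highest in anti-IL21R replicate 2, and Hbb-bs is lowest in isotype replicate 1 among the isotype libraries.

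The targeted receptor's own gene did not pass the test. Il21r was at 18.8, 21.6 and 16.8 CPM in the anti-IL21R libraries, against 20.8, 13.6 and 21.1 CPM in the isotype libraries, with overlapping groups (log2 fold change 0.05 ± 0.21 (SE, n = 3 libraries a group), adjusted p = 0.913 by the edgeR quasi-likelihood test). The antibody blocks the receptor protein, so its RNA does not check the label. Il21, the ligand, was a gene of low level at 1.28, 1.95 and 1.22 CPM in the anti-IL21R libraries, against 0.315, 0.101 and 0.410 CPM in the isotype libraries, or 112 counts over the anti-IL21R libraries against 23 over the isotype libraries (log2 fold change 2.48 ± 0.55, adjusted p = 0.0439). It was the single member of 20 tested in the pathway list to pass, and the list's median log2 fold change was 0.04. Il2rg, the common gamma chain, was at 38.9, 64.4 and 48.2 CPM in the anti-IL21R libraries, against 44.1, 23.6 and 29.7 CPM in the isotype libraries (log2 fold change 0.64 ± 0.22, adjusted p = 0.117). Stat3, the main transducer of the receptor, was at 314, 454 and 448 CPM in the anti-IL21R libraries, against 347, 245 and 248 CPM in the isotype libraries (log2 fold change 0.53 ± 0.21, adjusted p = 0.146), with isotype replicate 1 inside the anti-IL21R range. Jak3, Socs3, Bcl6 and Prdm1, which act downstream of IL-21 in lymphocytes, had log2 fold changes of 0.17, 0.18, 0.03 and −0.08 and adjusted p of 0.639, 0.883, 0.971 and 0.907. Socs1 had the lowest log2 fold change of the pathway list, −0.65, and did not pass. Among other cytokine receptor genes, Il12rb1, a shared chain of the IL-12 and IL-23 receptors, rose (log2 fold change 1.33 ± 0.30, adjusted p = 0.0451) and Lifr, the LIF receptor, fell (log2 fold change −1.70 ± 0.31, adjusted p = 0.0267). The adjusted p of Il21 was 0.164 without anti-IL21R replicate 2, and the pathway list then had 0 members past the threshold.

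Of 18 tested NF-kB response genes, 2 rose, 0 fell and 16 had a log2 fold change above 0, with a median of 0.32. Traf1, an adaptor of TNF family receptors, was at 44.7, 53.2 and 50.1 CPM in the anti-IL21R libraries, against 25.3, 17.7 and 22.1 CPM in the isotype libraries (log2 fold change 1.18 ± 0.19, adjusted p = 0.0195). Nfkbie, an inhibitor of NF-kB, was at 60.7, 91.0 and 91.5 CPM in the anti-IL21R libraries, against 51.6, 32.8 and 40.0 CPM in the isotype libraries (log2 fold change 0.97 ± 0.23, adjusted p = 0.0475). Neither overlapped, and for both isotype replicate 1 was the highest isotype library. Hif1a, the hypoxia-regulated transcription factor, was at 449, 482 and 453 CPM in the anti-IL21R libraries, against 367, 256 and 256 CPM in the isotype libraries (log2 fold change 0.66 ± 0.16, adjusted p = 0.0483), and with the phosphofructokinase gene Pfkp (0.55) it made up the 2 of 22 glycolysis and hypoxia genes that rose. Without anti-IL21R replicate 2 or 3 the NF-kB list had 0 members past the threshold.

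Few genes of neutrophil identity and of the later granules passed the test. Of 19 identity genes, 1 rose and 0 fell, with a median log2 fold change of 0.16. The gene that rose was Hdc, the histidine decarboxylase that makes histamine, at 2936, 3648 and 3084 CPM in the anti-IL21R libraries, against 2160, 1582 and 1750 CPM in the isotype libraries (log2 fold change 0.82 ± 0.20, adjusted p = 0.0489). S100a8, the other calprotectin subunit, was at 45961, 38176 and 33853 CPM in the anti-IL21R libraries, against 31860, 40639 and 43454 CPM in the isotype libraries (log2 fold change 0.03 ± 0.31, adjusted p = 0.971). Cxcr2, the receptor for neutrophil-attracting chemokines, had a log2 fold change of −0.30 and Cxcr4, the marrow-retention receptor, of 0.24, and neither passed. Of 14 specific granule genes, 0 passed in either direction by edgeR, DESeq2 or limma-voom, 1 had an unadjusted p under 0.05, and the median was −0.08. Camp, the cathelicidin gene, was at 9790, 8071 and 7409 CPM in the anti-IL21R libraries, against 7526, 11210 and 11805 CPM in the isotype libraries. Azurophil granule genes, which are transcribed in promyelocytes, had 2 of 10 members that fell and a median of −0.90. Ctsg, cathepsin G, was at 3.52, 2.26 and 4.60 CPM in the anti-IL21R libraries, against 8.46, 7.87 and 9.65 CPM in the isotype libraries (log2 fold change −1.32 ± 0.32, adjusted p = 0.0489), and Prss57, a related serine protease, fell by 0.94 on the log2 scale. Mpo, myeloperoxidase, was at 28.2, 5.62 and 30.9 CPM in the anti-IL21R libraries, against 71.4, 66.7 and 53.0 CPM in the isotype libraries, all lower than isotype, with replicate 2 far below the other anti-IL21R libraries (log2 fold change −1.56 ± 0.64, adjusted p = 0.17). Elane, neutrophil elastase, had the same order (log2 fold change −1.59 ± 0.59, adjusted p = 0.141). The adjusted p without anti-IL21R replicate 2 was 0.187 for Ctsg and 0.185 for Hdc.

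Apart from the NF-kB list above, lists of inflammatory, immediate-early, stress, survival, sensor and interferon receptor genes had no member past the edgeR threshold. By the edgeR test 0 members passed in either direction among 24 inflammatory chemokines and cytokines, 21 immediate-early genes, 15 heat shock protein genes, 20 apoptosis and survival genes, 20 pathogen sensor genes and 11 interferon ligand and receptor genes. Their median log2 fold changes were 0.10, −0.10, −0.18, −0.10, 0.21 and 0.57, and 2, 2, 1, 5, 8 and 4 members had an unadjusted p under 0.05. DESeq2 called 1, 0, 1, 1, 4 and 2 of them and limma-voom 0 in each list. Il1b, the precursor of interleukin-1 beta, was at 1294, 1500 and 1387 CPM in the anti-IL21R libraries, against 942, 1002 and 1249 CPM in the isotype libraries, with every anti-IL21R library higher and no call by the test (log2 fold change 0.39 ± 0.44, adjusted p = 0.631). Il10, an anti-inflammatory cytokine gene, was at 6.32, 7.34 and 4.92 CPM in the anti-IL21R libraries, against 3.42, 4.65 and 4.73 CPM in the isotype libraries (log2 fold change 0.53 ± 0.60, adjusted p = 0.63). Arg1, an arginase linked to suppressive myeloid cells, was at 5.99, 7.81 and 9.62 CPM in the anti-IL21R libraries, against 5.55, 31.5 and 8.42 CPM in the isotype libraries (log2 fold change −0.96 ± 1.09, adjusted p = 0.634). The groups overlapped for Arg1, where isotype replicate 2 was the high library, and did not overlap for Il10.

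Of 31 cell cycle genes tested, 11 fell and 0 rose, and the median log2 fold change was −0.73. Of the 31, 25 were lower in every anti-IL21R library than in any isotype library, against 12.7% of all genes. Cdca8, a subunit of the chromosomal passenger complex, was at 7.75, 8.71 and 9.17 CPM in the anti-IL21R libraries, against 15.8, 23.8 and 16.6 CPM in the isotype libraries. The anti-IL21R libraries were tight and all below the isotype libraries (log2 fold change −1.13 ± 0.19 (SE, n = 3 libraries a group), adjusted p = 0.0195 by the edgeR quasi-likelihood test). Ccna2, cyclin A2 of S phase and mitotic entry, was at 16.4, 13.2 and 13.8 CPM in the anti-IL21R libraries, against 23.8, 38.1 and 29.0 CPM in the isotype libraries (log2 fold change −1.07 ± 0.21, adjusted p = 0.0337). The ubiquitin-conjugating enzyme gene Ube2c, the spindle genes Nusap1 and Tpx2 and the mitotic kinase genes Aurkb and Plk1 fell by 0.96 to 1.03 on the log2 scale. The log2 fold changes of members that did not pass ranged from −1.07 for the spindle checkpoint kinase gene Bub1 to 0.29 for the mitotic kinase gene Aurka. Among them were the nucleotide synthesis genes Tyms and Rrm2, at −0.93 and −0.73, Cdk1 at −0.33 and the replication clamp gene Pcna at 0.08. Mki67, the proliferation marker Ki-67, was at 115, 151 and 149.5 CPM in the anti-IL21R libraries, against 164, 180.2 and 130.3 CPM in the isotype libraries and overlapped (log2 fold change −0.19 ± 0.23, adjusted p = 0.656). The number of members that fell was 3, 0 and 0 without anti-IL21R replicate 1, 2 and 3 and 15, 0 and 0 without isotype replicate 1, 2 and 3, and the median stayed between −0.87 and −0.62.

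Erythroid genes fell by larger factors. Of 11 tested, 7 fell and 0 rose, and the median log2 fold change was −2.52. Of the 11, 10 were lower in every anti-IL21R library than in any isotype library, against 12.7% of all genes. Hbb-bs, an adult beta-globin gene near-identical to Hbb-bt, was at 29.9, 43.5 and 22.1 CPM in the anti-IL21R libraries, against 127, 625 and 1271 CPM in the isotype libraries. The isotype libraries spread over a wide range, with replicate 1 nearest to the anti-IL21R libraries (log2 fold change −4.41 ± 0.87 (SE, n = 3 libraries a group), adjusted p = 0.0376 by the edgeR quasi-likelihood test). Alas2, the first enzyme of heme synthesis in red cell precursors, was at 3.28, 3.63 and 4.43 CPM in the anti-IL21R libraries, against 11.4, 51.2 and 66.7 CPM in the isotype libraries (log2 fold change −3.51 ± 0.73, adjusted p = 0.0435). Car2, a carbonic anhydrase of red cells, was at 8.18, 9.64 and 12.9 CPM in the anti-IL21R libraries, against 31.3, 30.2 and 35.9 CPM in the isotype libraries and tight in both groups (log2 fold change −1.66 ± 0.32, adjusted p = 0.0308). Klf1, the erythroid master transcription factor, had a log2 fold change of −1.51. The heme enzyme genes Fech and Cpox, chosen after their values were seen, fell by 1.37 and 1.14 on the log2 scale. The summed level of the erythroid list was 139, 161 and 137 CPM in the anti-IL21R libraries, against 363, 1211 and 2236 CPM in the isotype libraries. Leaving out any anti-IL21R library, or isotype replicate 2 or 3, left 0 erythroid members past the threshold, and leaving out isotype replicate 1 left 8, with medians of −2.75 to −2.21.

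The sinusoidal endothelial list had 0 of 10 members past the edgeR threshold and 8 with an unadjusted p under 0.05, all lower, and DESeq2 called 5 lower and limma-voom 0. Its median log2 fold change was −2.88 with a summed level of 216, 234 and 184 CPM in the anti-IL21R libraries, against 183, 507 and 309 CPM in the isotype libraries. Clec4g, a lectin of liver sinusoidal endothelium, was at 1.47, 1.48 and 1.05 CPM in the anti-IL21R libraries, against 2.28, 56.9 and 27.1 CPM in the isotype libraries, so isotype replicate 1 was near the anti-IL21R level and isotype replicates 2 and 3 far above (log2 fold change −4.44 ± 1.08, adjusted p = 0.0554). Genes of no list with a similar pattern were Flt4, a VEGF receptor gene (log2 fold change −4.29 ± 1.00, adjusted p = 0.0496), and the phosphatase genes Plpp3 and Ptprb, which fell by 4.19 and 3.59 on the log2 scale. Aqp1, a water channel gene that endothelium and red cells express, was at 7.94, 6.83 and 8.68 CPM in the anti-IL21R libraries, against 22.7, 143 and 77.5 CPM in the isotype libraries (log2 fold change −3.38 ± 0.58, adjusted p = 0.0267). Kupffer cell and macrophage markers had 0 of 13 past the edgeR threshold and 11 with an unadjusted p under 0.05, all lower, and DESeq2 called 7 lower and limma-voom 0. They had a median of −3.09 and sums of 211, 161 and 200 CPM in the anti-IL21R libraries, against 239, 675 and 446 CPM in the isotype libraries. Timd4, a receptor of resident Kupffer cells, was at 0.856, 1.17 and 1.57 CPM in the anti-IL21R libraries, against 4.29, 16.1 and 10.6 CPM in the isotype libraries (log2 fold change −3.09 ± 0.85, adjusted p = 0.0693). Without isotype replicate 1, which was the lowest isotype library for both, 7 endothelial and 4 Kupffer cell markers passed as lower.

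B and plasma cell markers had 0 of 12 past the edgeR threshold, 1 with an unadjusted p under 0.05 and 1 called lower by DESeq2 against 0 by limma-voom, and summed to 3529, 2738 and 3328 CPM in the anti-IL21R libraries, against 4776, 5354 and 4888 CPM in the isotype libraries. Ighm, the IgM heavy chain, was at 932, 884 and 1064 CPM in the anti-IL21R libraries, against 1515, 1990 and 1764 CPM in the isotype libraries, with every anti-IL21R library lower (log2 fold change −0.87 ± 0.29, adjusted p = 0.104). Of 229 tested immunoglobulin segments, 6 fell and 0 rose. Hepatocyte markers had 0 of 20 past the threshold by edgeR, DESeq2 or limma-voom and 3 with an unadjusted p under 0.05, and summed to 96.1, 134 and 163 CPM in the anti-IL21R libraries, against 121, 151 and 441 CPM in the isotype libraries.

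Of 12 eosinophil, basophil and mast cell markers, 1 rose and 0 fell by edgeR, 2 had an unadjusted p under 0.05 as higher and 5 as lower, DESeq2 called 2 higher and 2 lower and limma-voom 0, and the median log2 fold change was −0.53. Cd200r3, the member that rose, was at 0.380, 3.32 and 0.907 CPM in the anti-IL21R libraries, against 0.236, 0.0506 and 0.261 CPM in the isotype libraries (log2 fold change 3.14 ± 0.74, adjusted p = 0.0483). In the edgeR fit without anti-IL21R replicate 2, the highest library of this low-level gene, its log2 fold change was 1.91 with an adjusted p of 0.196. The basophil and mast cell gene Ms4a2, an IgE receptor chain, was at 0.666, 5.23 and 1.08 CPM in the anti-IL21R libraries, against 0.315, 0.329 and 0.224 CPM in the isotype libraries (log2 fold change 2.99 ± 0.75, adjusted p = 0.0553), and Il5ra, an eosinophil cytokine receptor chain, at 0.476, 0.742 and 0.802 CPM in the anti-IL21R libraries, against 1.53, 0.986 and 1.75 CPM in the isotype libraries (log2 fold change −1.05 ± 0.42, adjusted p = 0.152). Of 12 monocyte and dendritic cell markers, Zbtb46, a transcription factor gene of dendritic cells, was the 1 that fell by edgeR (log2 fold change −1.52 ± 0.36, adjusted p = 0.0483), DESeq2 called 3 lower and limma-voom 0, and their sum was 167, 176 and 164 CPM in the anti-IL21R libraries, against 194, 356 and 206 CPM in the isotype libraries. Cholangiocyte markers had 0 of 6 past the edgeR threshold, 1 higher and 1 lower with an unadjusted p under 0.05, and 1 higher and 1 lower by DESeq2 against 0 by limma-voom. They summed to 198, 295 and 173 CPM in the anti-IL21R libraries, against 129, 92.2 and 65.6 CPM in the isotype libraries, nearly all of it Spp1, which encodes osteopontin and which macrophages also express, at 196, 293 and 171 CPM in the anti-IL21R libraries, against 126, 90.2 and 61.9 CPM in the isotype libraries (log2 fold change 1.25 ± 0.34, adjusted p = 0.0651). Krt19, a keratin gene of bile duct cells, was at 0, 0 and 0 CPM in the anti-IL21R libraries, against 0, 0 and 0.335 CPM in the isotype libraries. Epcam, their adhesion gene, was at 0.761, 0.625 and 1.19 CPM in the anti-IL21R libraries, against 1.10, 0.607 and 1.08 CPM in the isotype libraries. Plasmacytoid dendritic cell, platelet and stellate cell markers had 0 of 8, 0 of 10 and 0 of 7 past the edgeR threshold and 1, 4 and 1 with an unadjusted p under 0.05, all lower, and DESeq2 called 0, 1 and 0 lower and limma-voom 0 in each. The part of these cells in the genes that fell, cell cycle and azurophil genes included, was not tested. Cytosolic ribosomal protein genes had 2 of 85 lower and 0 higher, and oxidative phosphorylation genes 1 of 77 lower and 0 higher, with medians of −0.16 and −0.19.

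**Figure D5:**
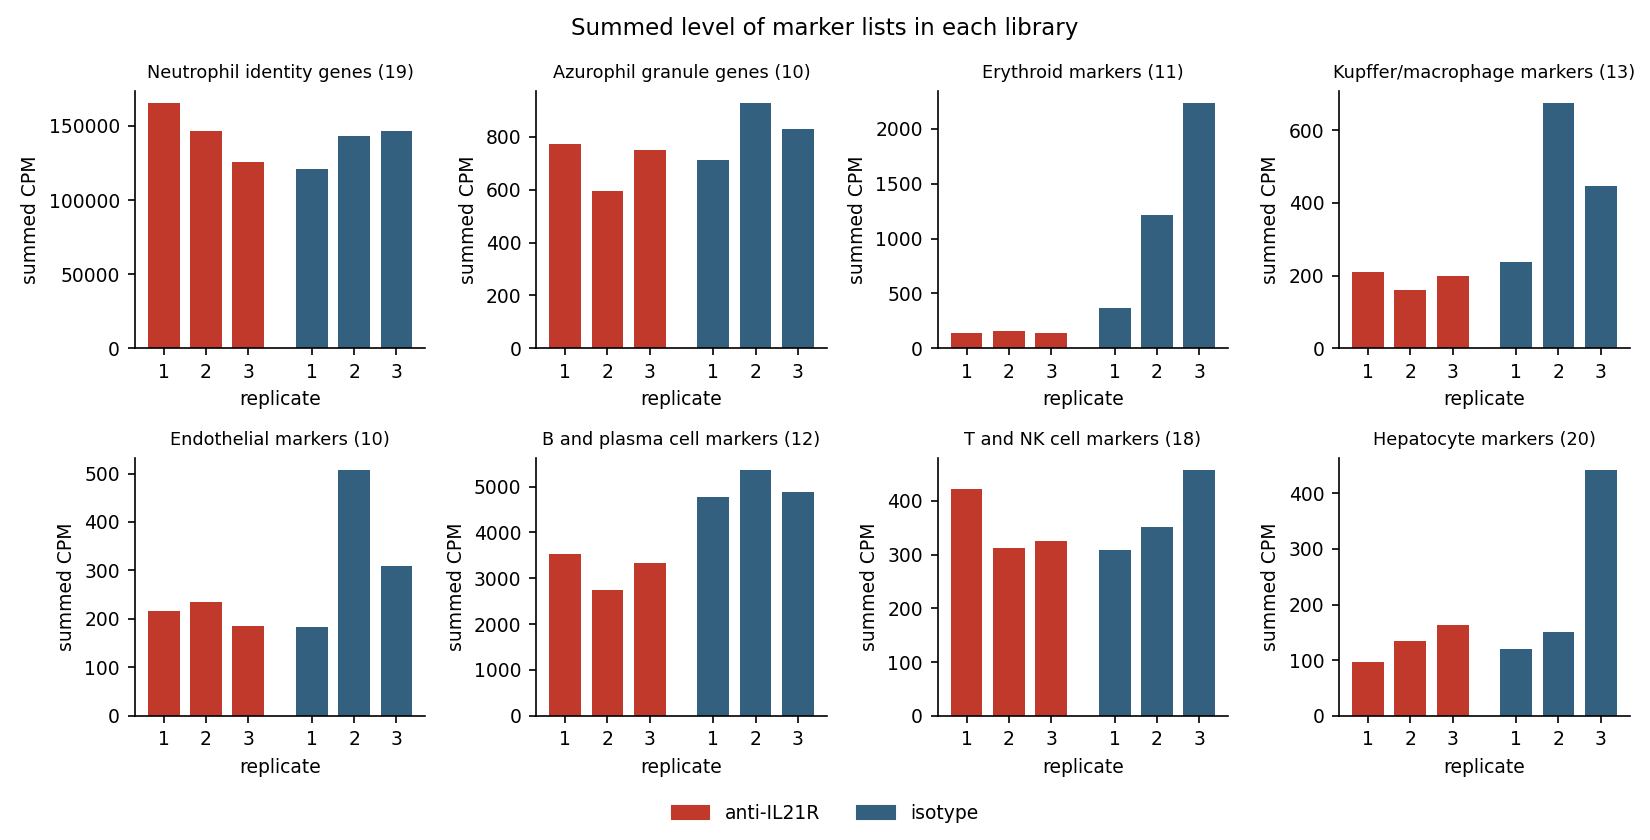
Summed level in CPM of neutrophil, azurophil granule and other cell types' marker lists (members tested in parentheses) in each anti-IL21R library (left) and isotype library (right). The erythroid sum is 137 to 161 CPM in the anti-IL21R libraries and 363 to 2236 CPM in the isotype libraries, and the Kupffer cell sum is 161 to 211 CPM in the anti-IL21R libraries and 239 to 675 CPM in the isotype libraries.

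Set against the 4 other antibody groups, with equal weight for each, the same anti-IL21R libraries had more genes past the threshold. Of the 16812 genes, 9247 passed (55%), 4320 higher (25.7%) and 4927 lower (29.3%). The libraries of this comparison include the same 3 anti-IL21R libraries, so the values stand side by side and are not independent of those above. Among called genes of at least 10 CPM without overlap, the highest fold change belonged to Cdk18, at 41.6 to 52.0 CPM in the anti-IL21R libraries, against 0.808 to 6.17 CPM in the 9 others (log2 fold change 4.02 ± 0.25, adjusted p = 3.83e-07). It was at 8.78 to 16.7 CPM with isotype. Efr3b was at 7.04 to 9.14 CPM in the anti-IL21R libraries, against 0.673 to 1.99 CPM in the 9 others. Gzmb was lower than the mean of the other groups. Its 13.6 to 16.3 CPM in the anti-IL21R libraries lay above the 4.62 to 11.2 CPM of the anti-IL35 and anti-GCF libraries and below the 64.8 to 85.0 CPM of the libraries with anti-TGFb or anti-IL10 (log2 fold change −0.70 ± 0.13, adjusted p = 0.000549). Type I interferon genes had 8 of 46 higher and 8 lower with a median log2 fold change of 0.25, interferon-gamma-induced genes 2 of 23 higher and 6 lower with a median of −0.47, and class I genes 3 of 16 higher and 6 lower with a median of −0.0036. The median of all genes was −0.13.

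Markers of other cells and neutrophil genes moved widely in this comparison. All 13 Kupffer cell markers were lower, with a median log2 fold change of −4.11, and 15 of 19 neutrophil identity genes were higher, with a median of 1.10. Clec4f, a Kupffer cell lectin, was at 0.333, 0.664 and 1.08 CPM in the anti-IL21R libraries, against 697 to 1503 CPM in the anti-GCF libraries and 0.397 to 209 CPM in the other 6. Fabp7, a fatty acid-binding protein gene, and Cd5l, which encodes a secreted protein of macrophages, led the genes that were lower under the same limits, with log2 fold changes of −5.79 and −5.30. Cell cycle genes had 4 of 31 higher and 9 lower, with a median of −0.31. Il21r was lower by 0.67 on the log2 scale (adjusted p = 0.0055). Without the anti-GCF libraries 6468 genes passed.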

How the data were processed

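The deposited antibody table gives raw counts per gene, unscaled and all whole, in 22505 rows for 15 libraries. Per the labels' protocols, the RNeasy Mini kit was used for RNA and the TruSeq Stranded mRNA kit for libraries. Bowtie2 2.2.5, STAR 2.5.3a, Partek, DESeq2 and build mm10 are listed in the submitters' processing notes, without their roles. The counting tool, the annotation and the use of strand in counting are not given in the sources used here, so reads of overlapping or antisense genes cannot be told apart. Unmapped columns of per-sample values numbered 0.

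The edgeR quasi-likelihood test with robust dispersion was run on TMM-scaled counts of all 15 libraries, with group as its term, after filterByExpr (R 4.3.3, edgeR 4.0.16, limma 3.58.1, DESeq2 1.42.0). Anti-IL21R was tested against isotype and against the mean of the other 4 antibody groups. A gene was called at a Benjamini-Hochberg adjusted p under 0.05 over 16812 genes, and standard errors are fold changes divided by the square root of F. Symbols were matched to GENCODE M21 for positions (16632 of the genes tested) and to RefSeq for promoters. The same fit was also run on simulated counts that held no outlying library, so that run cannot speak to the dependence of calls on single libraries.

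The members and gene lists were chosen with earlier results of these data known. The rule for named genes takes, per direction, the 10 largest fold changes among called genes of at least 10 CPM without overlap, the 3 lowest adjusted p of every list, fixed genes of the pathways, and the 10 genes of widest range in each group. It gave 179 genes, of which the text is a selection. Other genes in the text were chosen after their values were seen. Alternatives varied the scaling (RLE, upper quartile), the tool (DESeq2, limma-voom), the filter (absent, or 5 CPM in 2 libraries), the design (a replicate block, the compared groups alone), the fold required (2-fold) and the libraries (each left out in turn). Leaving out the anti-GCF libraries was chosen after seeing the data.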

Additional observations from a re-analysis of the deposited data

How the results depend on the processing

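Anti-IL21R against isotype gave 375 calls, and 394 with RLE scaling, 327 with upper-quartile scaling, 316 with limma-voom and 515 with a filter of 5 CPM in 2 libraries. It gave 1543 with DESeq2, 222 with no filter on low counts, 22 in a fit of only the groups compared, 196 when 2-fold changes were required, and 42 without the anti-GCF libraries, which was chosen after seeing the data. Leaving out single libraries gave 2 to 2123 calls, with 188, 2 and 2 without anti-IL21R replicate 1, 2 and 3 and 2123, 3 and 7 without isotype replicate 1, 2 and 3. Where 1 library of a group of 3 is left out, the remaining pair has less data, and the fit without isotype replicate 1 kept all 375 calls. The share of calls that were higher was 48.3%, and 58.9% with RLE scaling, 33.3% with upper-quartile scaling, 58.1% with DESeq2 and 65.2% with limma-voom, so the balance between higher and lower is not fixed by these data. Efr3b and Gzmb passed in 15 of 16 alternative fits. Anti-IL21R against the other antibody groups gave 9247 calls and 7017 to 9903 under the alternatives, except 5095 when 2-fold changes were required and 6468 without the anti-GCF libraries. Replicate numbers were not shown to pair the libraries, since the deviations of same-numbered libraries correlated at −0.16, −0.21 and −0.0059. A replicate block gave 59 calls with all 15 libraries and 9 with only the groups compared, and 8721 and 8097 against the other antibody groups. Of 108 genes of the text followed over the alternatives, 8 had log2 fold changes on both sides of 0. For 7 of them, Il21r, Socs3, Bcl6, Prdm1, S100a8, S100a9 and Ltf, no fit on either side made a call. The log2 fold change of Hsph1 was −0.31 and lay between −0.81 and 1.68 with single libraries left out, the highest without isotype replicate 1. The cause of these shifts was not tested. With 3 libraries a group, genes of low level and lists whose members vary between libraries, the type I interferon genes first, have the least certain values.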
